A study of Mus musculus with 12 samples.

Results

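The 35 mitosis and spindle checkpoint genes described here were chosen by name, from the mitosis marker Mki67 to the checkpoint gene Mad2l1, and all 35 were found among the 14107 genes of a count table from O4-positive mouse cells. The O4 antibody binds sulfated lipids on late oligodendrocyte precursors and immature oligodendrocytes, the glia that go on to make myelin. The 5 Chd7iKO libraries came from mice labelled PDGFRaCre; Chd7flox/flox, in which floxed Chd7 alleles are combined with a Cre named for the promoter of Pdgfra, a receptor gene of oligodendrocyte precursors. The 7 Control libraries came from littermates labelled Chd7flox/flox, which lack the Cre. Both groups were given tamoxifen under the skin at postnatal days 1 and 4. O4-positive cells were then taken with magnetic beads from the cortex and corpus callosum on postnatal day 7. Chd7 encodes a chromatin remodeller. No group had Cre without floxed Chd7, so an effect of Cre and one of Chd7 deletion cannot be told apart.

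Mitosis is driven by Cdk1 bound to cyclin B, which is switched on by phosphatases of the Cdc25 family and switched off when the anaphase-promoting complex, a ubiquitin ligase, marks cyclin B for destruction. The spindle checkpoint, made of the Bub and Mad proteins and the kinase Mps1, holds that ligase back until every kinetochore is attached to microtubules. Most of these genes are transcribed in G2 and M, so that in a mixed cell population their transcripts partly follow the number of dividing cells. Oligodendrocyte precursors divide in the first postnatal week and leave the cell cycle as they differentiate.

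Transcription of many such genes depends on a promoter element called the cell cycle genes homology region (CHR), which is bound by the MuvB core and B-Myb or FoxM1 in dividing cells, and on CCAAT boxes bound by NF-Y. The RefSeq promoter table (GRCm38.p6, 250 bases before to 50 bases after the gene start) held 29 of the 35 genes. Prc1 and Ect2 had 2 starts each, of which the first listed was used. For Aurka and Mad2l1, the last 20 bases of the window lay in no transcript of the gene in GENCODE, another set of gene models. Distances and absent words depend on the start used. The following 6 are shown because they span the entry kinase Plk1, cyclin B1, the checkpoint kinase Bub1, the anaphase activator Cdc20, survivin (Birc5), and the smallest fold change (Cdca3); Ccnb1 also had the largest. Capitals mark matches on either strand to any of 3 kinds of word. The core of the CHR was searched as TTTGAA and in a variant spelling as TTCGAA. The box bound by NF-Y was searched as CCAAT. A site like those of E2F factors was searched as TTCGCGC and, in a variant spelling, as TTGGCGC.
Ccnb1: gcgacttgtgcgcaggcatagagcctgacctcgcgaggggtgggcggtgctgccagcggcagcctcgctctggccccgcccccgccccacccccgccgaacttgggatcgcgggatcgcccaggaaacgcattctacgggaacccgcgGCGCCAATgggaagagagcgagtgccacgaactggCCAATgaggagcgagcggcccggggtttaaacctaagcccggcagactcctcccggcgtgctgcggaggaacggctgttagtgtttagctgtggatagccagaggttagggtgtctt
Cdc20: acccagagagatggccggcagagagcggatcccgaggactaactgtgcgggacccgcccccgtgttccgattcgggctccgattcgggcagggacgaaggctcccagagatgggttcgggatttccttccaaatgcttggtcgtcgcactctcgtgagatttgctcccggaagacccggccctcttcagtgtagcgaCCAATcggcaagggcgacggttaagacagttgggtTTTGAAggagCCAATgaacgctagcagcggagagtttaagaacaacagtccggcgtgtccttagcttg
Plk1: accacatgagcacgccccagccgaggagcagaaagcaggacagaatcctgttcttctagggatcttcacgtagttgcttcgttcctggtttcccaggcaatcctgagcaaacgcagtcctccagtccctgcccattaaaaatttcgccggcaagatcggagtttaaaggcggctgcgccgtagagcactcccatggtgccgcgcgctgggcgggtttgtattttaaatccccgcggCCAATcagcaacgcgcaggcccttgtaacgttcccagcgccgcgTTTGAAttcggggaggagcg
Birc5: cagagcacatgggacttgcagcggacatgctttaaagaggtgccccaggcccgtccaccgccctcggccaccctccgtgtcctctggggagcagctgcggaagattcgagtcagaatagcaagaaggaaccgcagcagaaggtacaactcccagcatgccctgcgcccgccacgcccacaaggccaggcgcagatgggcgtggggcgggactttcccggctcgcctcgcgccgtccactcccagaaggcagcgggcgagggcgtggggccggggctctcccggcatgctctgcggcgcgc
Bub1: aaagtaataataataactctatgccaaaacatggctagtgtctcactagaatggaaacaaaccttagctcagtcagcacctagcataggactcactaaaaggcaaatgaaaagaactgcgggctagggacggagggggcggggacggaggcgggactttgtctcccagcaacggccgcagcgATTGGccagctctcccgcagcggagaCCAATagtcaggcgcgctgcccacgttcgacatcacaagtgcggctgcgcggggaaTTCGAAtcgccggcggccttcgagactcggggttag
Cdca3: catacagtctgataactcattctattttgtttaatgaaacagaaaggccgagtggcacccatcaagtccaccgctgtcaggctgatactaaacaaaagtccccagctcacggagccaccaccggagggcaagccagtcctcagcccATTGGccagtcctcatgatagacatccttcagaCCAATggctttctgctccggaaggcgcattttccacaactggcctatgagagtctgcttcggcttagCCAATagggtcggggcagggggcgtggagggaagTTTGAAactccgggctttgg
These windows lie at chr13:100786437-100786736 (minus strand, Ccnb1), chr4:118437294-118437593 (minus, Cdc20), chr7:122159185-122159484 (plus, Plk1), chr11:117848987-117849286 (plus, Birc5), chr2:127831810-127832109 (minus, Bub1) and chr6:124829926-124830225 (plus, Cdca3).

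In this window Cdc20 held a CHR core 18 bases before its start, with CCAAT boxes 53 and 8 bases before the start. Plk1 held a CHR core 31 bases and Bub1 one 15 bases downstream of the start. Ccnb1 held a pair of CCAAT boxes and an E2F-like word that overlaps one of them, and Birc5 held none of these words. A CHR core was present in 22 of the 29 promoters (75.9%), against 13.1% of the 10733 promoters of all tested genes with an entry. CCAAT was present in 22 of 29 (75.9%), against 38.4%, and an E2F-like word in 5 of 29 (17.2%), against 7.15%. Of the 32 CHR cores in the 29 promoters, 24 lay between 100 bases before and 50 bases after the start, and 3 matches of different words overlapped. A match is a description of the letters and does not show that a factor binds.

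**Figure D1:**
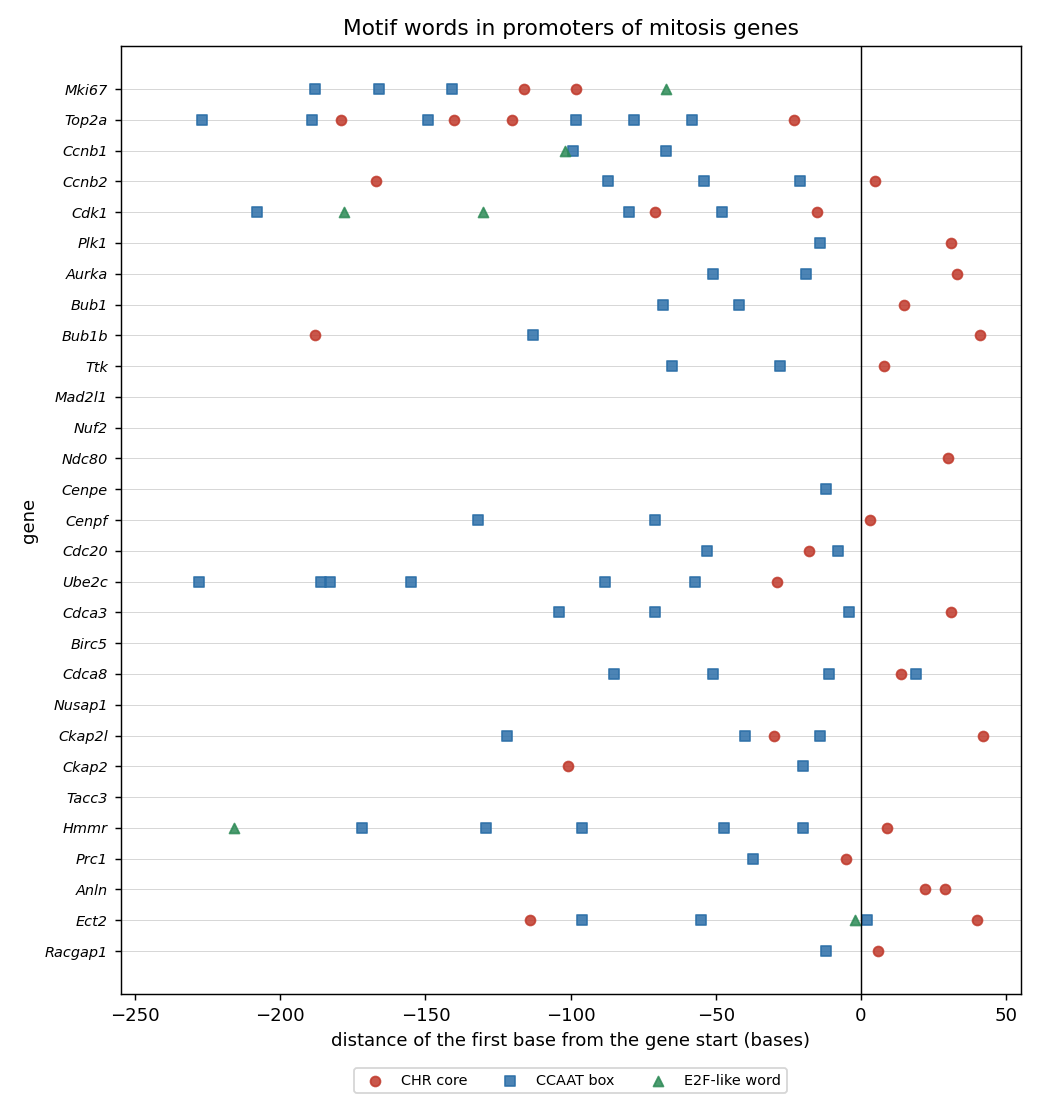
Positions of the CHR core, CCAAT boxes and E2F-like words in the promoters of 29 mitosis genes, as distance in bases of the first base from the gene start (1 line per gene). CCAAT boxes lie mostly before the start, with a median of 68 bases upstream, and CHR cores gather around the start.

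All 35 genes rose in Chd7iKO cells and 0 fell, by 1.45-fold (Cdca3) to 1.86-fold (Ccnb1), in edgeR's quasi-likelihood test with adjustment over all genes (adjusted p = 1.07e-04 to 0.00991). Of all 14107 genes tested, 15.8% were called higher and 13.8% lower (29.5% in either direction). The median log2 fold change of the 35 genes was 0.77, against 0.0014 over all genes. In 25 of the 35, all Chd7iKO libraries lay above all Control libraries, a pattern seen in 6.20% of all genes, and in 0 they lay below all Control libraries, against 6.32% of all genes. Together the 35 genes took 0.337% to 0.413% of all counts in Chd7iKO libraries, against 0.169% to 0.295% in Control libraries, and the groups did not overlap in this sum. In these bulk samples, a larger share of dividing cells and more RNA per dividing cell cannot be told apart. Nor do bulk samples show to which cell type the dividing cells belong.

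The libraries had 30384507 to 35512310 estimated counts, and the lowest count of any of the 35 genes in any library was 400. Chd7 itself had 281, 235, 258, 207 and 227 CPM (counts per 1e6 counts after TMM scaling) in the Chd7iKO libraries, against 179 to 270 CPM in Control libraries. The groups overlapped (log2 fold change 0.033, SE 0.098; edgeR adjusted p = 0.837), and counts over the whole gene do not check the deletion. Its relative Chd8 averaged 163 ± 19.8 CPM in Chd7iKO (SD, n = 5) and 164 ± 18.4 CPM in Control libraries (n = 7), and Trp53 averaged 90.1 ± 0.816 CPM in Chd7iKO and 64.7 ± 7.72 CPM in Control libraries. All 10 precursor markers looked up, among them C1ql1, Vcan and Lhfpl3, were detected in every library, with 14052 to 15572 CPM summed in Chd7iKO and 16146 to 19015 CPM in Control libraries, and 6 of the 10 fell. Controls 3 and 6 were known from earlier results of these data to stand apart, and Chd7iKO 4 and 5 to hold the most vascular markers. The count of the 35 genes called is given with and without them.

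**Figure D2:**
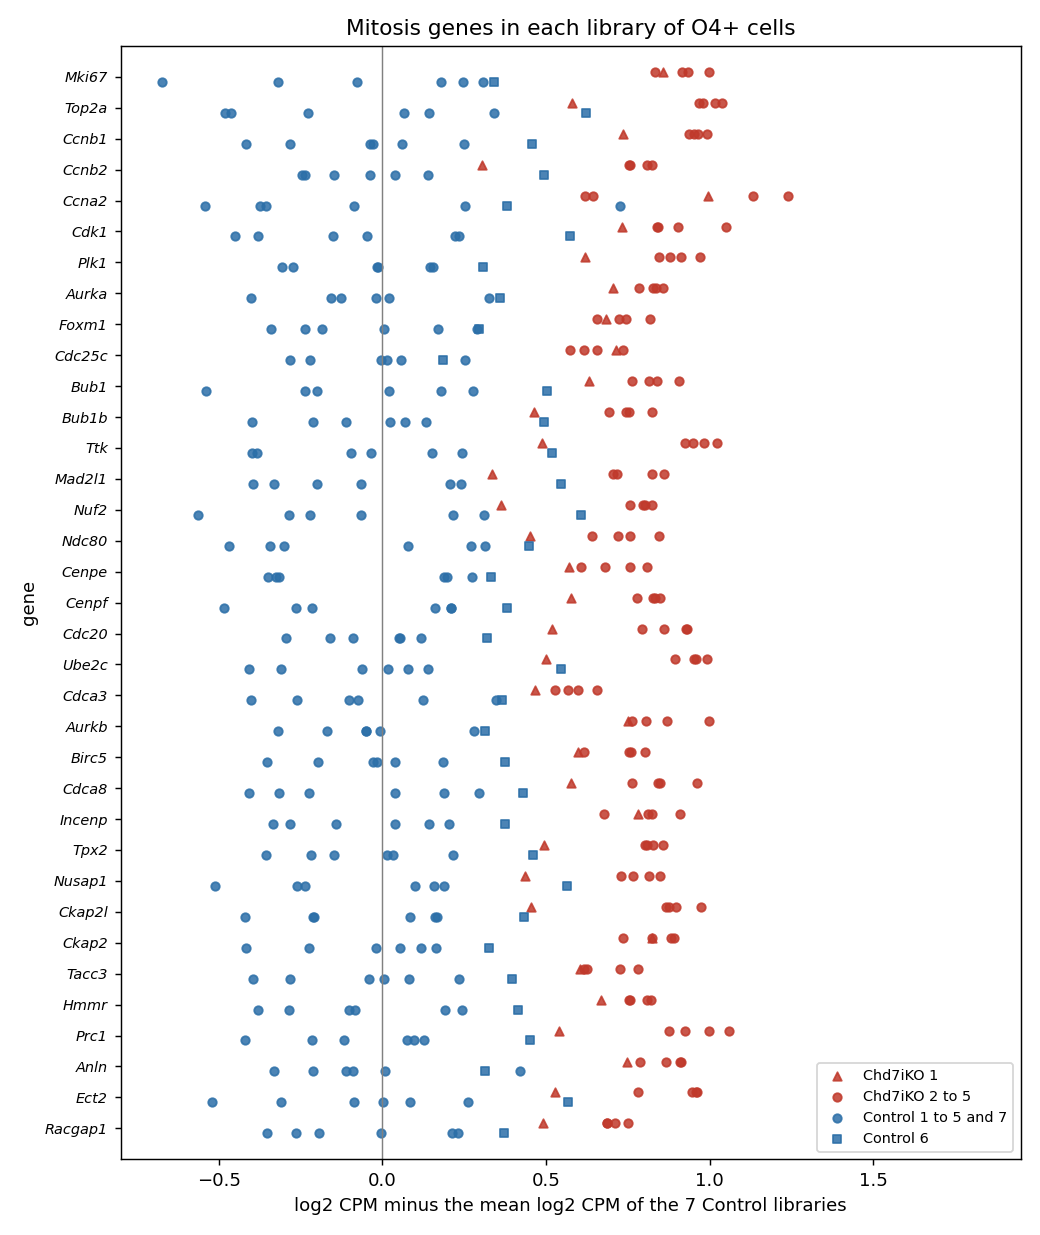
Level of each of the 35 genes in each library, as log2 CPM minus the mean log2 CPM of the 7 Control libraries; each point is a library, Chd7iKO above and Control below on each gene's line. Control 6 (squares) is the highest Control library in 32 genes, and Chd7iKO 1 (triangles) the lowest Chd7iKO library in 29.

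The 9 genes that bring cells into mitosis all rose, and 7 of them did not overlap between the groups. Ccnb1, the activating partner of Cdk1, had 147, 170, 176, 173 and 171 CPM in Chd7iKO libraries, against a lowest, median and highest value of 66.3, 86.9 and 122 CPM in Control libraries. The groups did not overlap, and the log2 fold change was 0.89 (SE 0.12, 95% interval 0.63 to 1.16, edgeR adjusted p = 2.15e-04). Its paralogue Ccnb2 had 36.1, 49.4, 51.8, 51.2 and 49.3 CPM in Chd7iKO libraries, against 24.6, 28.5 and 41.1 CPM (lowest, median, highest) in Control libraries. Here Chd7iKO 1 lay within the Control range and the other 4 Chd7iKO libraries above it (log2 fold change 0.68, SE 0.13). Cdk1, the mitotic kinase, stood at 103, 111, 128, 111 and 116 CPM in Chd7iKO libraries, against 45.3, 60.0 and 92.2 CPM in Control libraries, without overlap (0.84, SE 0.15).

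Cyclin A2, which acts in S phase and early mitosis, was the least even of the 35. Ccna2 had 141, 110, 167, 108 and 155 CPM in Chd7iKO libraries, against 48.4, 66.5 and 117 CPM (lowest, median, highest) in Control libraries. Chd7iKO 2 and 4 fell below Control 7, the highest Control library for this gene, and its coefficients of variation were the highest of the 35 in both groups (19.3% in Chd7iKO and 33.6% in Control). The fitted change was 0.88 on the log2 scale (SE 0.20), with adjusted p = 0.00605 in edgeR.

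Plk1, the kinase that promotes entry and later steps of mitosis, had 46.4, 55.6, 59.2, 54.4 and 56.9 CPM in Chd7iKO libraries, against 24.4, 29.9 and 37.4 CPM in Control libraries. The groups did not overlap (log2 fold change 0.84, SE 0.10). Aurka, the centrosomal Aurora kinase, averaged 28.0 ± 1.17 CPM in Chd7iKO (SD, n = 5) and 16.3 ± 3.09 CPM in Control libraries (n = 7). The transcription factor Foxm1, which drives many genes of this group, averaged 139 ± 6.11 CPM in Chd7iKO and 84.9 ± 15.1 CPM in Control libraries (0.71, SE 0.11). Foxm1 was the 1 gene of the 35 with estimated counts that were not whole. Cdc25c, a phosphatase that activates Cdk1, had 34.1, 31.8, 34.5, 30.9 and 32.7 CPM in Chd7iKO libraries, against 17.0, 20.9 and 24.7 CPM in Control libraries (0.65, SE 0.088). The groups did not overlap in Aurka, Foxm1 or Cdc25c. Cdca3, a trigger of mitotic entry that promotes loss of the Cdk1 inhibitor Wee1, had the smallest change, with 82.8, 88.7, 94.5, 90.8 and 86.4 CPM in Chd7iKO and 45.4, 56.9 and 77.2 CPM in Control libraries (0.54, SE 0.12, 95% interval 0.28 to 0.80). For Cdca3 too, all 5 Chd7iKO libraries lay above all Control libraries.

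Mki67, the gene of the proliferation marker Ki-67 that coats mitotic chromosomes, had 466, 485, 513, 457 and 491 CPM in Chd7iKO libraries, against 161, 291 and 325 CPM (lowest, median, highest) in Control libraries. The groups did not overlap (log2 fold change 0.87, SE 0.15). Top2a, the topoisomerase that untangles sister chromatids, had 342, 451, 469, 447 and 463 CPM in Chd7iKO libraries, against 164, 240 and 352 CPM in Control libraries. Control 6 was above Chd7iKO 1 for this gene, and the other libraries did not overlap (0.87, SE 0.17).

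**Figure D3:**
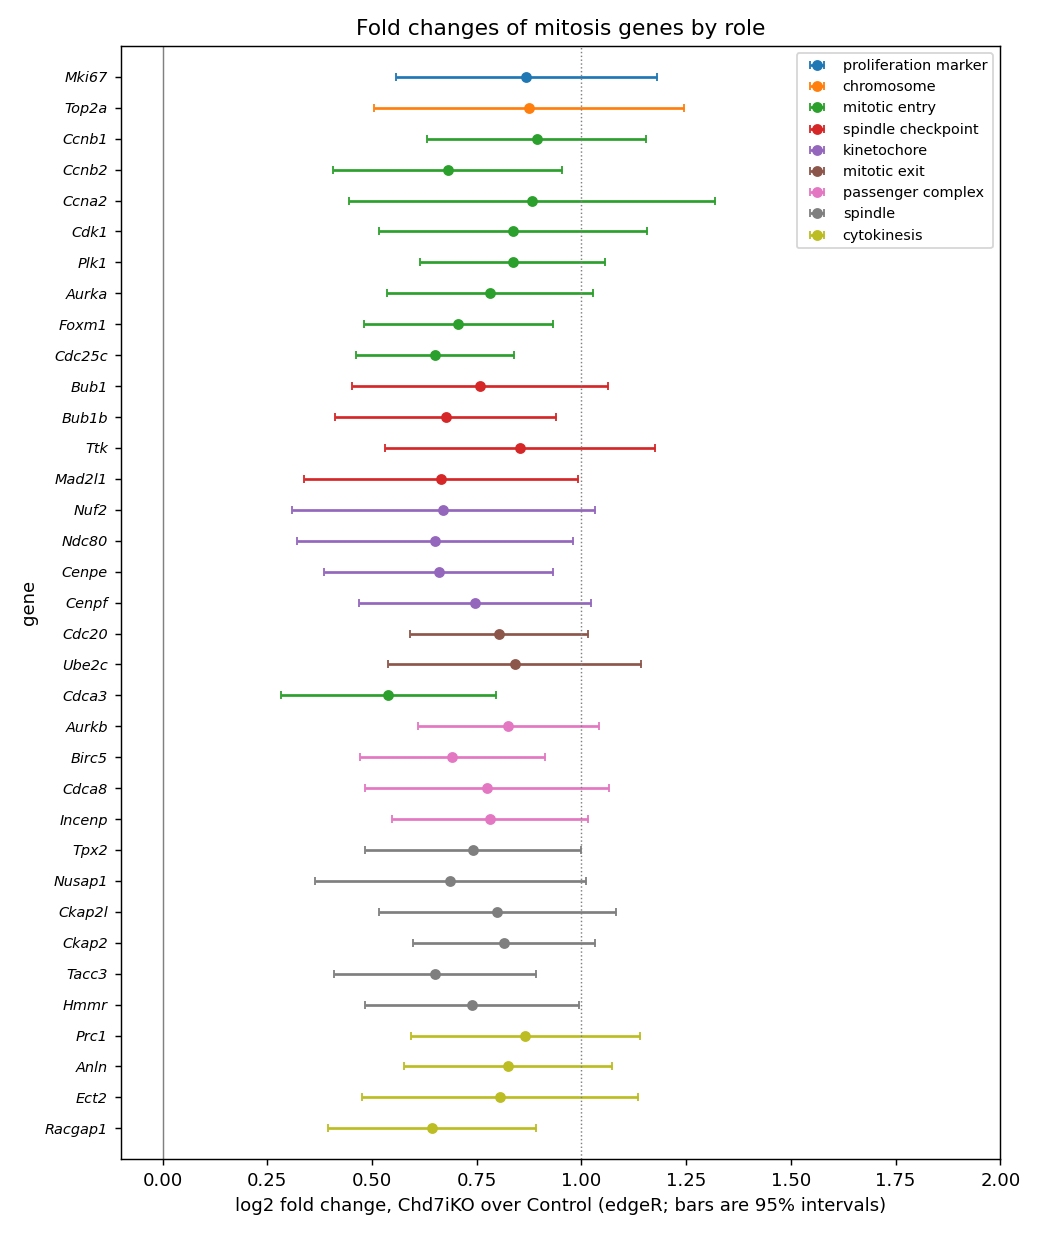
Log2 fold change of each gene, Chd7iKO over Control, with 95% intervals from the edgeR fit, coloured by role. Points run from 0.54 (Cdca3) to 0.89 (Ccnb1), and the dotted line marks a doubling, which 0 of the 35 estimates reach.

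The 4 checkpoint genes rose with log2 fold changes of 0.66 to 0.85. Bub1, a kinase that recruits the checkpoint to kinetochores, had 53.7, 58.9, 65.1, 61.0 and 62.0 CPM in Chd7iKO libraries, against 23.8, 35.2 and 49.1 CPM (lowest, median, highest) in Control libraries, without overlap (0.76, SE 0.14, edgeR adjusted p = 0.00184). Bub1b encodes BubR1, part of the complex that inhibits Cdc20, and had 63.5, 77.2, 81.6, 74.6 and 77.7 CPM in Chd7iKO libraries, against 34.99, 46.8 and 64.9 CPM in Control libraries. Ttk, the gene of the kinase Mps1, had 28.6, 40.4, 41.5, 39.4 and 38.8 CPM in Chd7iKO libraries, against 15.5, 19.9 and 29.3 CPM in Control libraries. In both Bub1b and Ttk, Chd7iKO 1 lay just below Control 6 and all other Chd7iKO libraries lay above every Control library. Mad2l1, whose product Mad2 also inhibits Cdc20, averaged 41.4 ± 5.55 CPM in Chd7iKO and 26.1 ± 6.42 CPM in Control libraries, again with Chd7iKO 1 (32.1 CPM) inside the Control range.

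Among the kinetochore genes, the log2 fold changes were 0.65 to 0.75. Ndc80 and Nuf2 encode partners in the complex that grips microtubules. Nuf2 had 48.4, 63.7, 65.5, 66.7 and 65.7 CPM in Chd7iKO libraries, against 25.5, 35.99 and 57.4 CPM in Control libraries, and had the highest adjusted p of the 35 (edgeR, 0.00991). Ndc80 averaged 27.8 ± 2.80 CPM in Chd7iKO and 17.7 ± 4.40 CPM in Control libraries. The motor Cenpe, which moves chromosomes to the spindle equator, averaged 78.8 ± 5.47 CPM in Chd7iKO and 49.9 ± 10.5 CPM in Control libraries. The large kinetochore protein gene Cenpf averaged 161 ± 12.1 CPM in Chd7iKO and 96.0 ± 20.3 CPM in Control libraries. Chd7iKO and Control libraries did not overlap in Ndc80, Cenpe or Cenpf.

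Both genes of mitotic exit rose. Cdc20, the activator through which the anaphase-promoting complex recognises its targets, had 73.9, 93.8, 98.4, 89.5 and 98.2 CPM in Chd7iKO libraries, against 42.1, 53.5 and 64.5 CPM (lowest, median, highest) in Control libraries. No Control library reached the lowest Chd7iKO library (log2 fold change 0.80, SE 0.099, edgeR adjusted p = 1.15e-04). Ube2c, the ubiquitin-conjugating enzyme of that complex, had 60.2, 79.1, 82.7, 82.3 and 84.8 CPM in Chd7iKO libraries, against 32.1, 43.0 and 62.1 CPM in Control libraries (0.84, SE 0.14), with Chd7iKO 1 just below Control 6.

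The chromosomal passenger complex, which corrects faulty attachments and later acts at the cleavage site, is formed by the kinase Aurkb with survivin (Birc5), borealin (Cdca8) and the scaffold Incenp. None of these 4 genes overlapped between the groups. Aurkb had the smallest adjusted p of the 35, with 50.02, 54.3, 59.4, 50.4 and 51.9 CPM in Chd7iKO and 23.8, 28.7 and 36.9 CPM in Control libraries (log2 fold change 0.83, SE 0.10, edgeR adjusted p = 1.07e-04). Birc5 averaged 58.9 ± 3.77 CPM in Chd7iKO and 36.5 ± 6.09 CPM in Control libraries. Cdca8 averaged 62.0 ± 5.97 and Incenp 85.7 ± 4.94 CPM in Chd7iKO, against 36.2 ± 8.05 and 49.8 ± 9.06 CPM in Control libraries.

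Of the 6 spindle genes, 5 did not overlap between the groups, and Nusap1, a microtubule-binding protein gene, overlapped through Chd7iKO 1 (76.1 CPM) and Control 6 (83.3 CPM). Their log2 fold changes ran from 0.65 for Tacc3, which stabilises spindle microtubules, to 0.81 for Ckap2. Tpx2, the activator of Aurora A on the spindle, had 127, 160, 158, 158 and 164 CPM in Chd7iKO libraries, against 70.5, 91.0 and 124 CPM in Control libraries. Its lowest Chd7iKO library was thus just above the highest Control library. Hmmr, whose product is also a hyaluronan receptor, averaged 53.2 ± 2.20 CPM in Chd7iKO and 31.9 ± 6.48 CPM in Control libraries. Ckap2l, which encodes a spindle pole protein, averaged 93.7 ± 12.2 CPM in Chd7iKO and 53.8 ± 10.9 CPM in Control libraries.

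All 4 cytokinesis genes rose, by 0.64 to 0.87 on the log2 scale. Prc1, which bundles the microtubules of the central spindle, had 118, 162, 169, 149 and 154 CPM in Chd7iKO libraries, against 60.6, 85.3 and 111 CPM in Control libraries (log2 fold change 0.87, SE 0.13). Racgap1, part of centralspindlin (0.64, SE 0.12), averaged 236 ± 15.8 CPM in Chd7iKO and 151 ± 29.2 CPM in Control libraries. Ect2, which is needed for cytokinesis, averaged 68.3 ± 8.37 CPM in Chd7iKO and 39.0 ± 9.86 CPM in Control libraries, with Chd7iKO 1 (54.8 CPM) below Control 6 (56.4 CPM). Anln, the gene of the contractile ring protein anillin, is also transcribed in myelinating oligodendrocytes. It had 41.0, 44.5, 42.1, 45.9 and 45.9 CPM in Chd7iKO libraries, against 19.4, 22.9 and 32.6 CPM in Control libraries, and the groups did not overlap (0.82, SE 0.12). Of 9 myelin markers, 0 were higher and 2 lower in edgeR (3 higher in limma voom), and their log2 fold changes had a median of -0.12.

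Values from 0.631 to 0.795 on the log2 scale lay inside the 95% interval of every gene, and the standard errors were 0.088 to 0.20. Levels per length ran from 27.9 CPM per kb of exon in Control libraries for Cdc20 to 2.73 for Ndc80 (48.6 and 4.28 CPM per kb in Chd7iKO libraries). Exon lengths came from GENCODE, and in Control libraries 10 of the 35 genes lay below the median of all genes with a length, 6.58 CPM per kb.

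In mean log2 CPM over the 35 genes, the Chd7iKO libraries 1 to 5 stood at 6.21, 6.42, 6.49, 6.39 and 6.45. Controls 1 to 7 stood at 5.28, 5.80, 5.43, 5.32, 5.63, 6.04 and 5.79. Chd7iKO 1 was the lowest Chd7iKO library in 29 genes, Control 6 the highest Control library in 32, and the lowest Control library was Control 1, 3 or 4 in all 35. The exceptions at the top of the Control group were Ccna2 (highest in Control 7) and Cdc25c and Anln (highest in Control 2). Of the 10 genes that overlapped between the groups, 9 did so through Control 6 alone. No matching share over all genes is given. The coefficient of variation was lower in Chd7iKO than in Control libraries for all 35 genes, with medians of 8.21% and 20.3%. Because the genes moved together by library, these are not 35 separate results, and the share over all genes is not given.

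**Figure D4:**
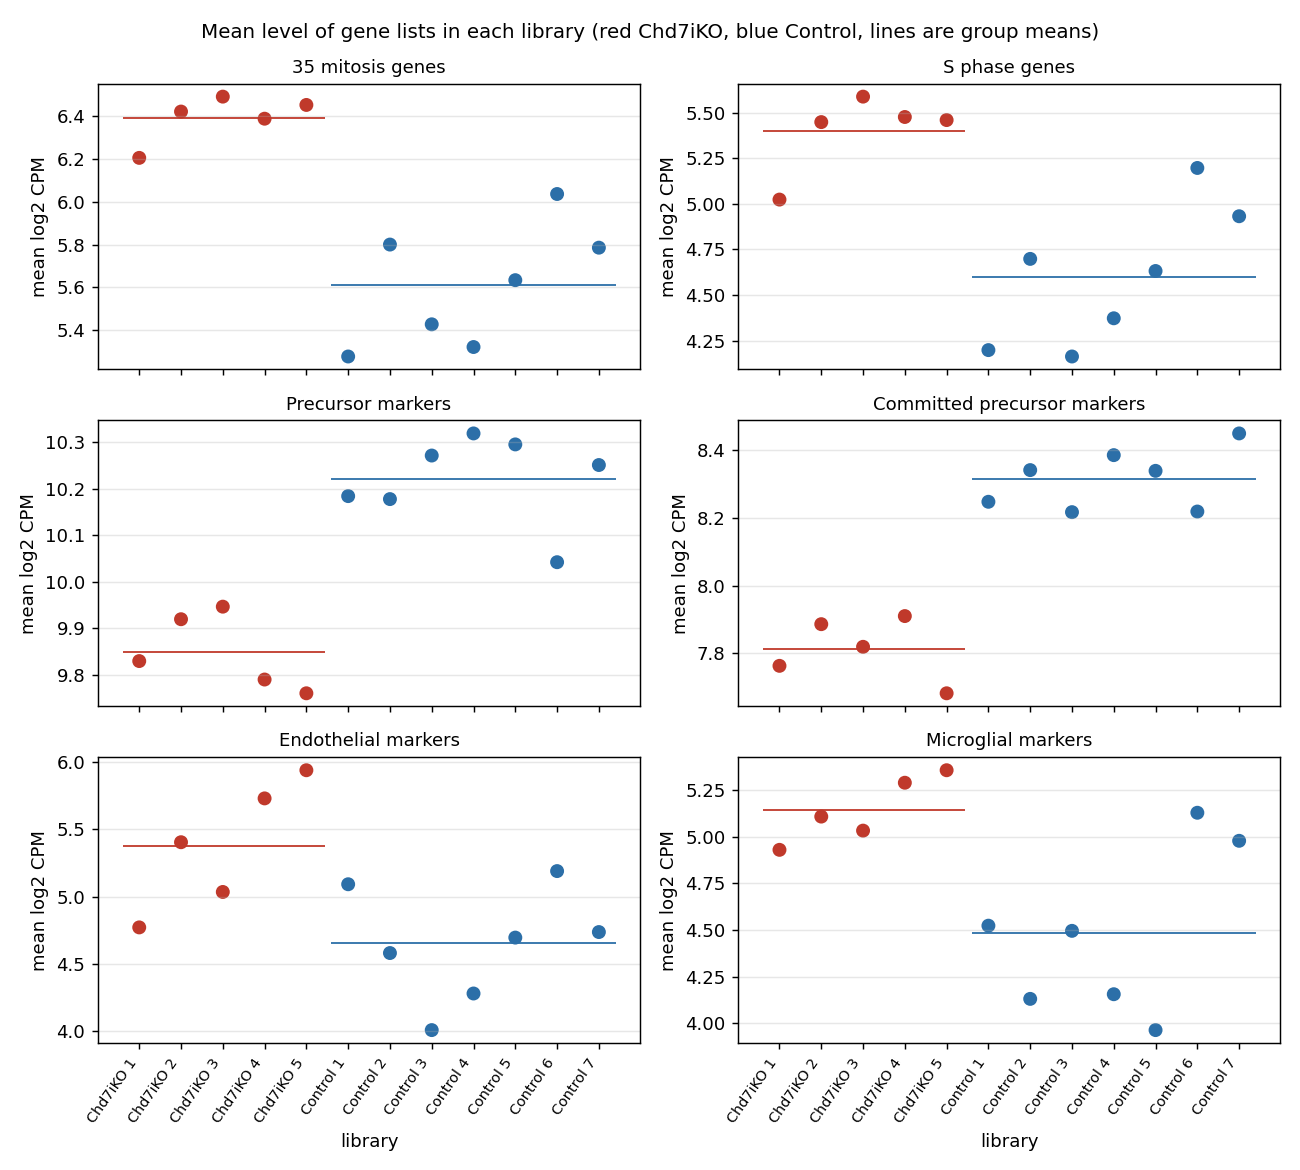
Mean log2 CPM of 6 gene lists in each library (Chd7iKO left, Control right; horizontal lines are group means). The 35 mitosis genes separate the groups, with 6.21 to 6.49 in Chd7iKO and 5.28 to 6.04 in Control libraries. Precursor and committed precursor markers also separate them, with Chd7iKO lower. S phase genes, endothelial markers and microglial markers overlap between the groups.

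Among markers of other cell types, most of those of endothelium, microglia and mural cells were higher in Chd7iKO libraries. Of 12 endothelial markers 9 rose, with 454 to 926 CPM summed in Chd7iKO and 289 to 597 CPM in Control libraries. Of 12 microglial markers 9 rose, with 581 to 757 CPM in Chd7iKO and 296 to 661 CPM in Control libraries. Of 12 mural and fibroblast markers 9 rose. Most of the summed level of that list was Cspg4, which is also a precursor marker and did not pass the test (log2 fold change -0.25). The other 11 summed to 341 to 899 CPM in Chd7iKO and 143 to 421 CPM in Control libraries, with means of 604 and 302 CPM. In edgeR, 0 of 10 astrocyte markers passed (1 in limma voom) and 3 of 9 neuronal markers fell (in limma voom 3 fell and 2 rose). Summed astrocyte markers were highest in Chd7iKO 1 (5013 CPM) and Control 1 (6737 CPM) within their groups. Chd7iKO 1 and Control 1 also had the lowest mean of the 35 genes in their groups. No marker of these lists was at 0 in any library. Chd7iKO 3, with the highest mean of the 35 genes, had 499 CPM of endothelial and 621 CPM of microglial markers, inside the Control ranges. For microglial markers, only Control 6 (661 CPM) was higher among the Control libraries, and Control 7 followed with 600 CPM. Control 6 also had the highest mean of the 35 genes among the Control libraries. Whether other cell types contributed to the rise was not tested. Chd7iKO 4 and 5 had the most endothelial and microglial markers. Without them, 32 of the 35 genes were called higher, with Mad2l1, Nuf2 and Ndc80 lost at edgeR adjusted p = 0.0525 to 0.0794. Their log2 fold changes without these libraries were 0.62 (Mad2l1), 0.60 (Nuf2) and 0.62 (Ndc80), against 0.66, 0.67 and 0.65 in all libraries. With a score of the other cell types' markers added to the fit (as a covariate), 27 of 35 were called, with log2 fold changes of 0.50 to 0.85 over all 35. The score ran from -0.13 to 0.96 in Chd7iKO and from -0.84 to 0.47 in Control libraries. It thus partly follows the group, and this fit cannot fully separate the score from the group. The 8 genes lost were Top2a, Ccna2, Mad2l1, Nuf2, Ndc80, Cdca3, Nusap1 and Ect2 (edgeR adjusted p = 0.0536 to 0.142). Without Controls 3 and 6 all 35 were called, as they were when any single library was left out.

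Further genes of the same machinery were read from lists. Of 28 other kinetochore and checkpoint genes, 23 rose and 0 fell (median 0.63 on the log2 scale). The histone H3 variant gene Cenpa averaged 55.5 ± 6.44 CPM in Chd7iKO and 34.4 ± 6.14 CPM in Control libraries, and Ska3 (0.70, SE 0.11) and Pmf1 (0.56, SE 0.089) also rose. The checkpoint partner Bub3 rose by 0.26 on the log2 scale (SE 0.056, edgeR adjusted p = 0.00484). Mad1l1, which recruits Mad2, did not pass the test (log2 fold change 0.012, SE 0.074, 95% interval -0.15 to 0.17, edgeR adjusted p = 0.925). The list's count was 15 without Chd7iKO 4 and 5 and 8 with the covariate.

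Of 15 mitotic kinesins and cytokinesis genes, 14 rose, among them Kifc1 (log2 fold change 0.81), Kif18b (0.85) and the centralspindlin motor Kif23 (0.87). Of 12 regulators of mitotic entry, 10 rose, among them the phosphatases Cdc25b (0.58) and Cdc25a (0.47) and cyclin F (Ccnf, 0.77), and 6 rose with the covariate. Of 21 condensin and cohesin genes 14 rose, with a median of 0.45, and 8 with the covariate. The condensin subunits Ncapd2 (0.71) and Ncaph (0.81) and separase, Espl1 (0.88), which cuts cohesin at anaphase, had the smallest adjusted p.

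Among 17 genes of the anaphase-promoting complex and its regulators, 3 rose (the ubiquitin enzyme Ube2s, the inhibitor Fbxo5 and Anapc15) and Anapc16 fell. Their median log2 fold change was 0.065. Ube2s changed by 0.32 (SE 0.065) and Fbxo5 by 0.59 (SE 0.16) on the log2 scale. Of 12 MuvB and DREAM genes, 5 rose. Mybl2, the gene of B-Myb, averaged 31.8 ± 4.39 CPM in Chd7iKO and 16.9 ± 4.61 CPM in Control libraries (0.91, SE 0.17), and Lin9 (0.50) and the pocket protein gene Rbl1 (0.62) rose too. Without Chd7iKO 4 and 5 the counts higher were 1 for the complex and 2 for MuvB and DREAM.

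All 29 S phase genes rose (median 0.81 on the log2 scale), as in Mcm4 (0.84), Tyms (0.46) and E2f1 (1.08). This count was 15 without Chd7iKO 4 and 5 and 5 with the covariate. Of 6 Cdk inhibitors, 4 rose and Cdkn1c fell. Cdkn1a, the p53 target p21 that blocks cyclin-dependent kinases, had 147, 110, 109, 102 and 121 CPM in Chd7iKO libraries, against 9.54 (Control 7) to 56.1 CPM (Control 3) in Control libraries, without overlap. Cdkn2b, an inhibitor of G1 kinases, averaged 9.64 ± 1.39 CPM in Chd7iKO and 1.52 ± 1.21 CPM in Control libraries. Its level was 3.39 CPM in Control 3 and 3.15 CPM in Control 6, against 0.488 to 0.977 CPM in the other Control libraries. Of 10 markers of committed precursors, 9 fell, among them Neu4 (-0.83), Bmp4 (-0.64) and Bcas1 (-0.54), with 4621 to 5720 CPM summed in Chd7iKO, against 7080 to 9066 CPM in Control libraries.

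In the authors' deposited lists of binding, 11 of the 35 genes (31.4%) were named as Chd7-bound in precursors, against 39.4% of all tested genes. These were Ccna2, Cdc20, Cdc25c, Cdca3, Cdca8, Cenpf, Incenp, Mad2l1, Ndc80, Nuf2 and Nusap1, and all 11 stand in the list bound by both Chd7 and Chd8. That list held 4905 tested genes (34.8%), against 5555 in the list of genes bound by Chd7 in precursors. A further 19 (54.3%, against 32.0% of all tested genes) stood in the list of genes bound by Chd8 and not by Chd7, among them Ccnb1, Cdk1, Aurka, Aurkb, Bub1 and Top2a. A list of genes bound by Chd7 in oligodendrocytes only held 3 of the 35 (8.57%, against 7.8% of all tested genes), Anln, Bub1b and Tacc3, and Anln and Tacc3 are also among those 19. The median log2 fold change was 0.69 in the 11 Chd7-bound genes and 0.80 in the other 24, and all of both passed the test. The sources used here do not state how sites were tied to genes.

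Genes outside the 35 that share their promoter letters were described in the same way. Of 576 other tested genes with both a CHR core and a CCAAT box, 24.5% were called higher and 9.03% lower. Of 10704 other tested genes with a promoter entry, 15.4% were called higher and 13.5% lower. Among the 29 mitosis genes with an entry, the 20 with both words had a median log2 fold change of 0.80 (0.54 to 0.87), and the other 9 one of 0.67 (0.65 to 0.89). No test was made of these shares. In the authors' deposited table, all 35 genes had an adjusted p under 0.05, as did 26.4% of all genes, with log2 fold changes of 0.54 to 0.89.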

How the data were processed

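Libraries were made with a stranded mRNA kit, per the labels' protocols. TopHat2, Bowtie, featureCounts and edgeR, with build mm10, are listed without role or version in the submitters' processing notes. The authors deposited unscaled estimated counts for 14107 genes, with 1.76% of values not whole, and their own log2 fold changes, p-values and adjusted p-values. Estimated counts were rounded. Two-sided edgeR (4.0.16) quasi-likelihood tests used TMM scaling, edgeR's expression filter (0 genes removed), no covariate and Benjamini-Hochberg adjustment over all genes, with a threshold of 0.05. SE and 95% intervals come from that fit, and log2 CPM used a prior count of 2. DESeq2 1.42.0 and limma 3.58.1 gave alternatives. The covariate was the mean standardised log2 CPM of microglial, endothelial, mural, astrocyte and neuronal markers. No 2 libraries of a group agreed within sampling noise (lowest chi-square per degree of freedom 9.14 over 31 pairs). The sources used here do not state how many pups made a library, so p-values measure only the spread between these libraries, which may be technical. Exon lengths came from GENCODE vM21 and promoters from RefSeq, both on GRCm38. The code was tested on simulated data. Named genes were the 35 members, up to 3 called genes with the smallest adjusted p of each further list, Chd7, Chd8 and Trp53; Bub3, Mad1l1, Anapc16 and Cspg4 were added after their values were seen. The members, lists and tests were chosen with earlier results of these data known.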

Additional observations from a re-analysis of the deposited data

Results flagged for a closer look

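Of 70 groups examined (35 genes in each of the Chd7iKO and Control groups), 10 had a library far from the others of its group. For a single group, chance gives about 1 in 20. The genes share the same libraries, so the groups are not independent and that rate does not apply to their count. All 10 were low values of Chd7iKO 1. These were Top2a (342 CPM), Ccnb1 (147 CPM), Ccnb2 (36.1 CPM), Ttk (28.6 CPM), Nuf2 (48.4 CPM), Cenpf (140 CPM), Ube2c (60.2 CPM), Tpx2 (127 CPM), Ckap2l (72.4 CPM) and Racgap1 (209 CPM). The same library had the lowest S phase mean of the Chd7iKO group, 5.02 log2 CPM against 5.45 to 5.59 in the other 4. Without Chd7iKO 1 all 35 genes were called higher, with log2 fold changes of 0.56 to 0.95.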

How the results depend on the processing

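All 35 genes kept a positive log2 fold change under every alternative run, and all 35 an unadjusted p under 0.05. The count called higher was 35 under DESeq2 size factors, upper quartile scaling, library totals, the DESeq2 Wald test, limma voom, no filter, a mean of at least 100 counts, a threshold of 0.01, and without Controls 3 and 6. It was 27 with the covariate of other cell types and 32 without Chd7iKO 4 and 5. The count called lower was 0 in all of these. The median log2 fold change ranged from 0.72 to 0.86 when single libraries were left out, and the count called stayed at 35. The count of all genes called was 4167, against 6462 with limma voom, 2056 at a threshold of 0.01, 1357 with the covariate and 1747 without Chd7iKO 4 and 5, and 2690 (without Chd7iKO 5) to 4612 (without Control 6) when 1 library was left out. With the replicate number as a block (replicate block, Controls 6 and 7 left out), 35 members and 4819 genes were called, against 35 and 4593 in the same libraries without it, a fit added after the data were seen. The sources used here do not state whether same-numbered libraries share a litter or batch. Their deviations correlated at -0.18 to 0.38. Of the 5 Chd7iKO libraries, 1 (Chd7iKO 1, correlation 0.38) correlated best with the Control library of its own number. Counts of higher genes in further lists moved by over 1.5 times as follows. With the covariate they were 5 of S phase (against 29), 8 of other kinetochore and checkpoint (23), 8 of condensin and cohesin (14), 6 of mitotic entry (10), 2 of MuvB (5) and 1 of the anaphase-promoting complex (3). Without Chd7iKO 4 and 5 they were 15, 15 (S phase, kinetochore), 2 (MuvB) and 1 (complex). At 0.01 MuvB had 3 and the complex 1, and the complex had 7 with limma voom and 5 with the block. Without Controls 3 and 6 no list moved by over 1.5 times. With the covariate, Cdk inhibitors numbered 2, against 4. Endothelial, microglial and mural markers, 9 each, numbered 0, 3 and 3 at 0.01, and 0, 2 and 1 without Chd7iKO 4 and 5. The covariate is built from these markers and left 0 of each. Leaving Cspg4 out of it, also added after the data were seen, gave 27 members and 1345 genes called, with 9 kinesin and cytokinesis genes (against 14) and 0 of the complex. The cause of the other shifts was not tested. The lowest count of the 35 genes in any library was 400.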

Other observations

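Ratios between mitosis genes differed between Control libraries. The ratio of Ccnb1 to Mki67 CPM was 0.316 to 0.378 in the Chd7iKO libraries, 0.540 in Control 3 and 0.272 to 0.374 in the other Control libraries. The ratio of Cdc20 to Mki67 was 0.159 to 0.200 in the Chd7iKO libraries, 0.332 in Control 3 and 0.159 to 0.204 in the other Control libraries. Both ratios share Mki67, which was lowest in Control 3. The ratio of Ccna2 to Ccnb1 was 0.627 to 0.955 in the Chd7iKO libraries, 1.27 in Control 7, 0.558 in Control 3 and 0.631 to 0.976 in the other Control libraries. These ratios were chosen after the values were seen and were not tested. Control 3 was lowest of its group in 6 genes, Mki67, Top2a, Ccna2, Ndc80, Cenpf and Incenp, and had the highest Cdkn1a level (56.1 CPM) and the highest Trp53 level (80.3 CPM) of the Control libraries.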
